A study of Mus musculus with 9 samples.

Results

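The Oas genes of the mouse encode 2′-5′ oligoadenylate synthetases and their close relatives. Here their transcripts were compared over 3 mouse colon carcinoma lines: MC38-P, the parental line, and 2 derivatives of it selected for growth in the liver, MC38-LM3a and MC38-LM3b. The members were chosen by gene symbol, and 8 symbols were listed: Oas1a, Oas1b, Oas1c, Oas1g, Oas2, Oas3, Oasl1 and Oasl2. Of these, 7 were among the 16399 genes with deposited values and Oas1b was not analysed here. The filter on low values kept 5 members (Oas1a, Oas1c, Oas3, Oasl1 and Oasl2), and 11287 genes in all were tested. MC38 is a tumor cell line of C57BL/6 origin, and all lines here carried a GFP-luciferase reporter. The derivatives were expanded from liver lesions of immunocompetent C57BL/6 mice after 3 rounds of intrasplenic injection, whereas MC38-P had not passed through that selection. Each line was sequenced as 3 cultures, 9 libraries in all, without any treatment at harvest. Every group is therefore a single line, and the p-values measure the spread between its cultures and not between independent selections.

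A synthetase of this family binds double-stranded RNA (dsRNA) and joins ATP into short 2′-5′ linked oligoadenylates. These are second messengers that lead to the cutting of cellular and viral RNA. Transcription of most Oas genes is induced by interferon through factors that bind the interferon-stimulated response element (ISRE), Stat2 and Irf9 among them. Oas1a and Oas1g encode small synthetases, Oas2 and Oas3 encode larger proteins built of repeated synthetase units, and Oasl1 and Oasl2 encode proteins with ubiquitin-like domains.

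To show what the members share in sequence, the stretch of promoter around the core of an ISRE is printed for the 4 members that held one. The window searched ran from 250 bases before to 50 after the start of each gene in RefSeq, on build GRCm38.p6. The letters searched were GAAANNGAAA on either strand, overlapping matches included, and they are in capitals below. All 4 genes lie on the minus strand, and the sequences are read along it. The stretches lie at chr5:120907518-120907569 (Oas1a), chr5:120887604-120887655 (Oas1g), chr5:120812601-120812652 (Oas1c) and chr5:120777713-120777758 (Oas3).
Oas1a: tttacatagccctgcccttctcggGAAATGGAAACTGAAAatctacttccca
Oas1g: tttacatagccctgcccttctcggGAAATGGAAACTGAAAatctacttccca
Oas1c: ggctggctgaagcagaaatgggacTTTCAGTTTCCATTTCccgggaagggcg
Oas3: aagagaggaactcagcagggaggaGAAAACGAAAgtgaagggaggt
The stretches of Oas1a and Oas1g are identical, and each holds a pair of overlapping matches, 20 to 5 bases before the start of Oas1a and 18 to 3 before that of Oas1g. In Oas1c the same pair lies on the opposite strand, 114 to 99 bases before the start. Oas1a and the opposite strand of Oas1c share a run of 19 bases there, CGGGAAATGGAAACTGAAA. Oas3 holds 1 match, 75 to 66 bases before its start. Thus 4 of the 6 member windows held the letters, against 3.44% of 32851 windows (1131), and the windows of Oasl1 and Oasl2 did not. The letters of a gamma-activated site, TTCNNNGAA, which is its own reverse complement, were found in 1 of the 6 windows (Oas1a, 98 to 90 bases before the start) and in 8.3% of all windows. Such a match is a description of the window and not a shown binding site. The table used held no window for Oas1b and Oas2.

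Values are TPM (transcript abundance), which correct for transcript length and scale each library to the same total. Libraries listed 10875 to 11218 genes at 1 TPM or more, and pairs of libraries correlated across genes with r from 0.969 to 0.997. Depth is unknown, since TPM keeps no read counts. Replicate 3 of MC38-P and replicate 3 of MC38-LM3a stood apart from their groups along transcript length. The deviation of a library from its group mean had a Spearman correlation with length, across 11096 genes, of -0.62 in MC38-P replicate 3 and 0.64 in MC38-LM3a replicate 3. It was 0.51 and 0.41 in the other MC38-P libraries, -0.55 and -0.51 in the other MC38-LM3a libraries, and between -0.01 and 0.02 in MC38-LM3b. These correlations are across genes, which do not replicate each other, and carry no test. Oas3 has a long transcript (4720 bases, at the 73.4 percentile of tested genes) and Oas1a a short one (1885 bases, 17.8 percentile). Without these 2 libraries, an alternative chosen after seeing the data, the tested members kept their calls against MC38-P, and the difference in MC38-LM3a was 1.83 for Oas1a, 0.97 for Oas1c, 0.55 for Oas3, 1.23 for Oasl1 and 0.62 for Oasl2 on the log2(TPM + 1) scale. In MC38-LM3b it was 1.84, 1.02, 1.22, 1.15 and 0.87 in the same order.

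All 5 tested members were higher in both derivatives than in MC38-P. Across the 7 measured members the summed level was 12.3 ± 1.56 TPM for the parental line, 31.3 ± 2.72 for MC38-LM3a and 36.6 ± 1.11 for MC38-LM3b (SD, n = 3). The 5 members passed an adjusted p of 0.05 in limma in each comparison, where 14.1% of the 11287 tested genes were called higher in MC38-LM3a and 35.6% in MC38-LM3b. In both comparisons, which share the MC38-P libraries, 13.3% of the tested genes were called higher. With a difference above 1 on the log2(TPM + 1) scale added, after the fold threshold of the study, which was not set on this scale, the counts were 2 in MC38-LM3a (Oas1a and Oasl1) and 3 in MC38-LM3b (Oas1a, Oasl1 and Oas3). That rule called 1.39% and 2.76% of the tested genes higher. The counts depend on the pseudocount, and with 0.1 in place of 1 they were 3 and 5, beside 2.22% and 4.46% of the tested genes. On the log2(TPM + 1) scale the 5 members had a median difference of 0.88 for MC38-LM3a and 1.25 for MC38-LM3b, beside medians over all tested genes of 0.00 and 0.21. No tested member was lower.

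**Figure D1:**
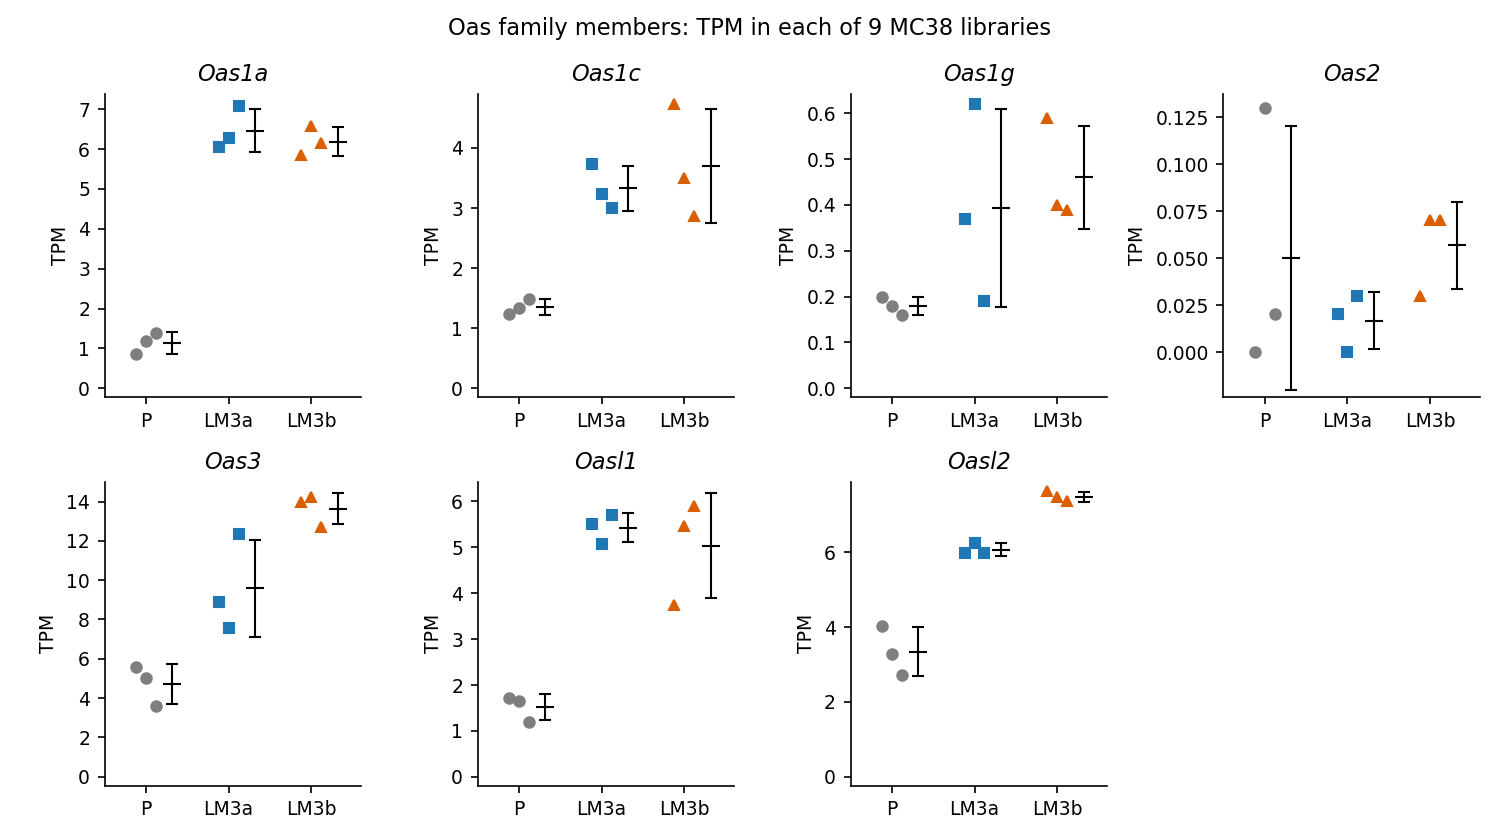
TPM (y axis, a scale for each gene) of the 7 measured Oas members in each library of MC38-P (P), MC38-LM3a and MC38-LM3b (x axis), with the mean and SD of 3 libraries in black beside the points. Oas1a lies between 0.85 and 1.38 TPM in MC38-P and at 5.84 TPM or above in every derivative library, while Oas2 stays at or below 0.13 TPM throughout.

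Oas1a encodes a catalytically active small synthetase. It measured 0.85, 1.18 and 1.38 TPM in the MC38-P libraries, 6.04, 6.27 and 7.08 in those of MC38-LM3a, and 5.84, 6.57 and 6.15 in those of MC38-LM3b. Every derivative library was above every MC38-P library, as for 20.3% (MC38-LM3a) and 51.3% (MC38-LM3b) of tested genes, and the derivatives overlapped each other. Mean TPM was 5.69-fold that of the parental line in MC38-LM3a and 5.44-fold in MC38-LM3b. On the log2(TPM + 1) scale, which understates changes of low values, the difference was 1.81 (SE 0.125, 95% interval 1.53 to 2.09, adjusted p = 4.527e-06, limma) and 1.76 (1.48 to 2.03, adjusted p = 3.818e-06). This was the largest rise among the tested members in each derivative. Its share of the summed family level was 9.51 ± 3.41% in the parental line, against 20.7 ± 0.904% (MC38-LM3a) and 16.9 ± 0.819% (MC38-LM3b).

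Oas1g is the nearest relative of Oas1a, with 96.7% identity over 1101 aligned bases of coding sequence. It measured 0.16 to 0.20 TPM in MC38-P, 0.37, 0.62 and 0.19 in those of MC38-LM3a, and 0.59, 0.40 and 0.39 in those of MC38-LM3b, and so did not reach the level needed for testing. The MC38-LM3b libraries lay above those of MC38-P, whereas MC38-LM3a replicate 3 lay within the MC38-P range. Fitted without the filter, its difference was 0.23 in MC38-LM3a (adjusted p = 0.172, limma) and 0.30 in MC38-LM3b (adjusted p = 0.0509). Of the runs of 100 bases in Oas1a transcripts, 40.9% also occur in Oas1g transcripts, and 31.2% of those of Oas1g occur in Oas1a. How reads from these runs were assigned is not given in the sources used here, so the split between Oas1a and Oas1g is uncertain.

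Oas1c is a further Oas1 paralog, with 76.2% identity to Oas1a over 1071 aligned bases. The MC38-P libraries measured 1.23, 1.34 and 1.49 TPM, those of MC38-LM3a 3.74, 3.24 and 3.00, and those of MC38-LM3b 4.73, 3.50 and 2.87. No derivative library overlapped MC38-P, which held for the same 20.3% and 51.3% of tested genes. The differences were 0.88 (SE 0.151, adjusted p = 0.00164, limma) and 0.98 (adjusted p = 5.911e-04), or 2.46-fold and 2.73-fold in mean TPM. Oas1c shares 4.23% of its runs of 100 bases with an antisense gene, Gm43069, that was not analysed here, and the other tested members apart from Oas1a share none. The remaining Oas1 paralogs with values, Oas1d and Oas1e, were at or below 0.25 TPM in every library.

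Oas3, the largest synthetase, was the most abundant member in each line. The MC38-P libraries measured 5.59, 5.00 and 3.61 TPM, those of MC38-LM3a 8.88, 7.57 and 12.34, and those of MC38-LM3b 14.00, 14.21 and 12.72. The 3 lines did not overlap, and 20.3% (MC38-LM3a) and 51.3% (MC38-LM3b) of tested genes were likewise higher than in MC38-P without overlap. The lowest library of MC38-P and the highest of MC38-LM3a were the replicates 3 described above. The difference from MC38-P was 0.88 in MC38-LM3a (SE 0.177, adjusted p = 0.00414, limma) and 1.37 in MC38-LM3b (adjusted p = 2.064e-04). Without both replicates 3 these were 0.55 (adjusted p = 7.308e-04) and 1.22 (adjusted p = 2.727e-06). With the GC and length offsets they were 0.93 (adjusted p = 9.507e-06, limma) and 1.14 (adjusted p = 1.975e-06). Oas2, the other large synthetase, was between 0 and 0.13 TPM in the 9 libraries, with overlap between all lines. It was not tested, and its difference without the filter was -0.04 and 0.01.

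Oasl1 and Oasl2 carry ubiquitin-like domains at their C termini, and the protein of Oasl1 lacks synthetase activity and is known to restrain translation of Irf7. Their coding sequences have 62.3% identity over 1491 aligned bases. For Oasl1 the MC38-P libraries measured 1.71, 1.66 and 1.19 TPM, those of MC38-LM3a 5.50, 5.08 and 5.70, and those of MC38-LM3b 3.74, 5.46 and 5.90. Its difference was 1.36 (SE 0.156, adjusted p = 1.337e-04, limma) and 1.25 (adjusted p = 1.641e-04), or 3.57-fold and 3.31-fold in mean TPM. For Oasl2 they measured 4.02, 3.29 and 2.73 TPM, 5.98, 6.26 and 5.97, and 7.63, 7.47 and 7.36. For neither gene did a derivative library overlap MC38-P, as for 20.3% (MC38-LM3a) and 51.3% (MC38-LM3b) of tested genes that were higher without overlap. Oasl2 had the smallest tested difference of the family in MC38-LM3a, 0.71 (SE 0.122, adjusted p = 0.00164, limma), and one of 0.98 (adjusted p = 1.680e-04) in MC38-LM3b.

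The order of the members changed between the lines. In MC38-P it was Oas3, Oasl2, Oasl1, Oas1c, Oas1a, Oas1g and Oas2 by mean TPM, with overlap between Oas3 and Oasl2, between Oasl1 and Oas1c, and between Oas1c and Oas1a. In MC38-LM3a Oas1a stood second behind Oas3, its libraries overlapping those of Oasl2, followed by Oasl1 and Oas1c without overlap. In MC38-LM3b the order was Oas3, Oasl2, Oas1a, Oasl1 and Oas1c, and the last 3 of these overlapped from neighbour to neighbour. Oas1g and Oas2 came last in every line. Oas3 made up 38.1 ± 3.6% of the family in the parental line, 30.4 ± 5.07% (MC38-LM3a) and 37.3 ± 1.26% (MC38-LM3b), and Oasl2 made up 27.0 ± 2.19%, 19.5 ± 2.08% and 20.5 ± 0.573%.

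Between the derivatives no tested member passed an adjusted p of 0.05, where limma called 6 of the 11287 tested genes (0.0532%) and 38.1% had an unadjusted p under 0.05. Of the members, only Oas3 was past that unadjusted level (adjusted p = 0.119, limma). The difference of MC38-LM3b from MC38-LM3a was 0.49 for Oas3 (95% interval 0.10 to 0.88) and 0.26 for Oasl2 (-0.01 to 0.53, adjusted p = 0.136). For these 2 genes the libraries of the derivatives did not overlap, as for 38.4% of tested genes in that direction. The difference was -0.05 for Oas1a (-0.33 to 0.22), 0.10 for Oas1c (-0.23 to 0.44) and -0.11 for Oasl1 (-0.45 to 0.24). The median over all tested genes was 0.21 in this comparison. For Oas3 the call turned on MC38-LM3a replicate 3, and the value moved with others too. Without MC38-LM3a replicate 2 it was 0.35 (adjusted p = 0.372, limma). Without MC38-LM3a replicate 3 it was 0.67 (adjusted p = 0.00522, limma), where 56.4% of 11256 tested genes were called (6351), and after offsets for GC content and transcript length it was 0.20 (adjusted p = 0.198). The part of the length pattern in this difference was not tested beyond these values.

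**Figure D2:**
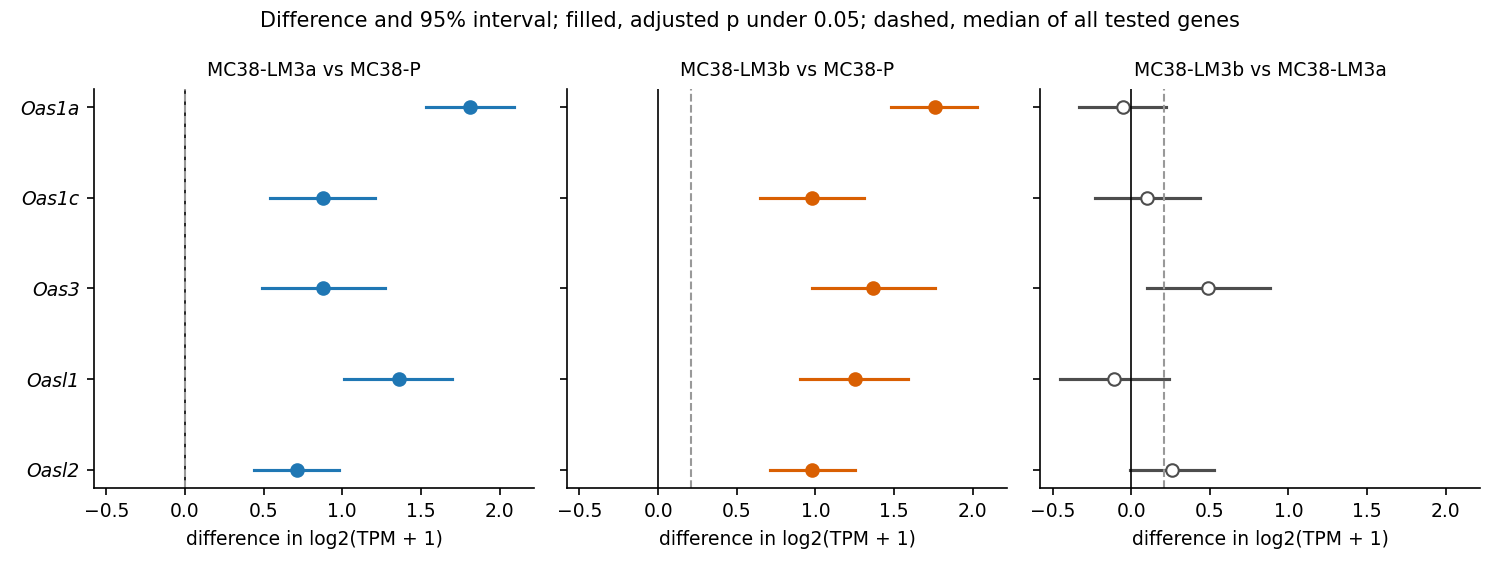
Difference in mean log2(TPM + 1) with its 95% interval (x axis) for the 5 tested members (y axis) in 3 comparisons, each panel 1 comparison. Filled points had an adjusted p under 0.05 and the dashed line is the median of all tested genes. All 5 lie above 0 in both comparisons with MC38-P, and none is filled between the derivatives.

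**Figure D3:**
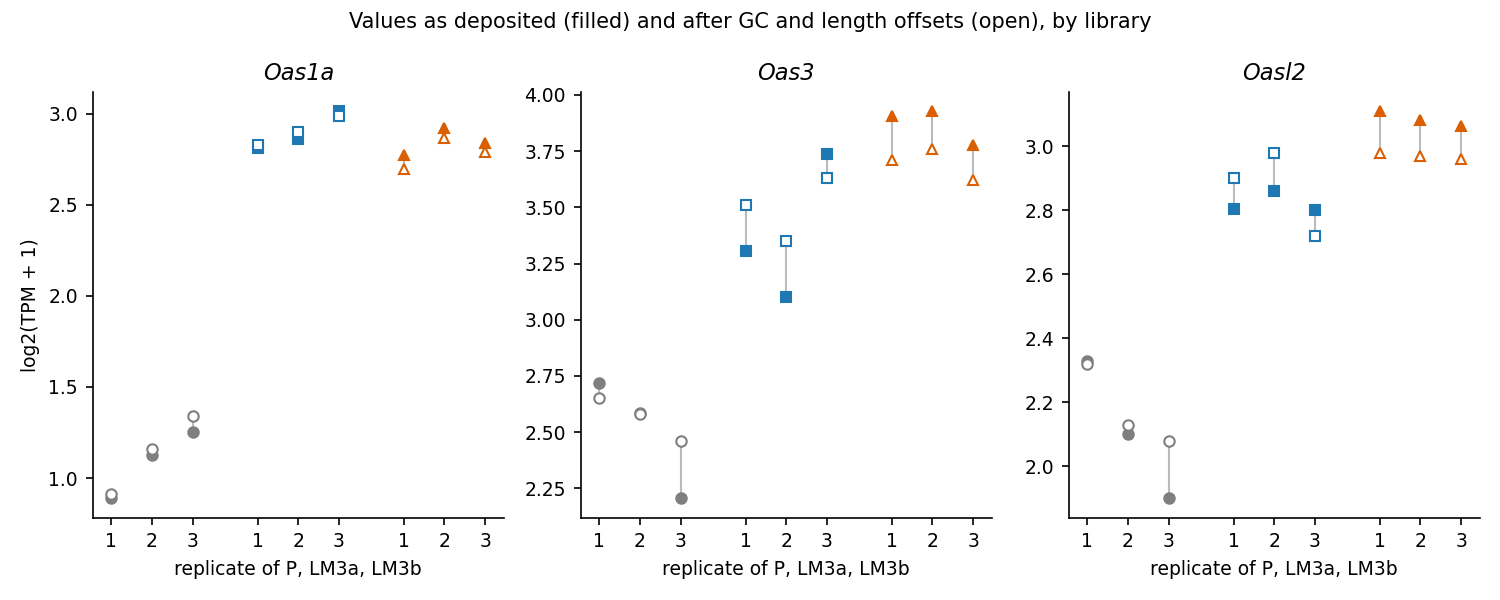
Log2(TPM + 1) of Oas1a, Oas3 and Oasl2 (y axis, a scale for each gene) in the 9 libraries (x axis, replicates 1 to 3 of MC38-P in grey, MC38-LM3a in blue and MC38-LM3b in orange), as deposited (filled) and after offsets for GC content and transcript length (open), joined by a line. For Oas3 the offsets move MC38-P replicate 3 up to 2.46 and MC38-LM3a replicate 3 down to 3.63, and every derivative library stays above MC38-P.

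Other genes of the 2′-5′ oligoadenylate system were examined next, and Akap7 rose in both derivatives. Akap7, an anchoring protein that can also cleave 2′-5′ oligoadenylates, measured 6.31, 5.48 and 5.09 TPM in the parental libraries, 12.75, 12.20 and 13.73 in those of MC38-LM3a, and 13.76, 14.37 and 13.94 in those of MC38-LM3b. Its difference was 1.07 (adjusted p = 4.529e-05, limma) and 1.18 (adjusted p = 1.806e-05). Pde12, a phosphodiesterase that degrades the oligoadenylates, had differences of -0.14 and -0.01 that did not pass the test. It was called lower in MC38-LM3b with quantile normalization (-0.25), median centring (-0.23) and the GC and length offsets (-0.28), and in MC38-LM3a without both replicates 3 (-0.23). Of all tested genes, 24.5%, 26.4%, 28.3% and 45.2% were called lower in these fits in turn. Abce1, a ribosome recycling factor, had differences of -0.28 and -0.10 (adjusted p = 0.0894 and 0.494, limma). Abce1 passed the test as lower under some other scalings, at -0.32 and -0.36 with the GC and length offsets. It also passed as lower in MC38-LM3a without MC38-P replicate 3 (-0.38), without MC38-LM3a replicate 3 (-0.40) and without both (-0.50), and in MC38-LM3b without both (-0.19).

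Other genes of the interferon pathway were taken from lists, and with the values as deposited each gene of them that passed the test was higher than in MC38-P. Among 36 tested genes of the pathway, those of the 2′-5′ oligoadenylate system included, 11 were higher in MC38-LM3a and 23 in MC38-LM3b, with 11 of them in both, against 14.1%, 35.6% and 13.3% of all tested genes. The median difference over these 36 genes was 0.20 and 0.47, beside 0.00 and 0.21 over all tested genes, and none was called between the derivatives by limma. Without replicate 3 of MC38-LM3a, 21 of the pathway genes were called higher in MC38-LM3b than in MC38-LM3a, where 52.2% of all tested genes were called higher. Without the replicates 3 of both MC38-P and MC38-LM3a, 11 were called higher and 10 lower in MC38-LM3a than in MC38-P, against 18.4% and 45.2% of all tested genes. With median centring of each library, 20 were called higher and 2 lower there, against 19.8% and 20.1%, and in MC38-LM3b 20 were higher and 5 lower, against 22.9% and 26.4%. Of 8 other dsRNA sensors, 3 rose in MC38-LM3a and 5 rose in MC38-LM3b. The largest rise was that of Ifih1, which encodes the long-dsRNA sensor Mda5, from 3.45 ± 0.525 TPM in MC38-P to 10.2 ± 1.46 and 13.0 ± 0.705 (SD, n = 3), with differences of 1.33 and 1.66 (adjusted p = 4.819e-05 and 8.137e-06, limma). Tlr3, the endosomal dsRNA receptor, rose by 0.71 and 1.13.

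Of 9 interferon-response transcription factors, 4 rose in MC38-LM3a and 8 in MC38-LM3b, against 14.1% and 35.6% of all tested genes called higher. These shares are also the background for the receptors, kinases and negative regulators that follow, and a count near them says nothing about a list. Irf8 rose most, from 15.2 ± 0.04 TPM to 31.8 ± 1.99 and 36.4 ± 1.13 (SD, n = 3), and Irf7 rose from 1.27 ± 0.356 to 2.70 ± 0.327 and 2.94 ± 0.0458. Stat2 had a difference of 0.48 in MC38-LM3a that did not pass (adjusted p = 0.103, limma, with 0.00342 to 0.459 over the alternatives, under which the difference ranged from 0.09, without both replicates 3, to 0.64) and rose by 0.91 in MC38-LM3b (adjusted p = 0.00437). Irf9 had 0.30 (adjusted p = 0.187) and 0.44 (adjusted p = 0.0378, limma), and the latter call was lost under 12 of 20 alternatives, with adjusted p between 0.0144 and 0.211. The difference itself was 0.18 with quantile normalization, 0.22 with median centring and 0.25 with the GC and length offsets. It stayed at 0.44 where the call was lost with no filter on low values, with the replicate block or without MC38-LM3a replicate 1. In the other fits with libraries left out that lost the call, it was 0.35 to 0.40. Among 8 interferon receptors and kinases, 1 rose in MC38-LM3a (Ifngr1, a chain of the interferon gamma receptor, by 0.33) and 5 in MC38-LM3b. These 5 included Ifngr1 (by 0.54, with 0.32 to 0.57 over the alternatives). The kinases Tyk2 (by 0.88) and Jak1 (by 0.60) rose more than Ifngr1 in MC38-LM3b. In MC38-LM3a Tyk2 and Jak1 had differences of 0.31 and 0.32 that did not pass. The 5 type I interferon genes with values were at or below 0.55 TPM in every library, listed at 0 in some, and none was tested.

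Of 7 genes listed as negative regulators, 1 rose in MC38-LM3a and 3 rose in MC38-LM3b, beside 14.1% and 35.6% of all tested genes. Whether each acts so in these cells was not tested. The one in common was Isg15, a ubiquitin-like modifier that is itself induced by interferon, at 11.2 ± 2.11, 20.3 ± 4.33 and 20.2 ± 0.76 TPM (SD, n = 3) and with differences of 0.80 and 0.81 (adjusted p = 0.00418 and 0.00263, limma). Usp18, the protease that removes Isg15 and dampens receptor signaling, had values of 1.73 ± 0.52, 1.63 ± 0.20 and 1.81 ± 0.539 TPM and differences of -0.04 and 0.04 (adjusted p = 0.888 and 0.853).

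**Figure D4:**
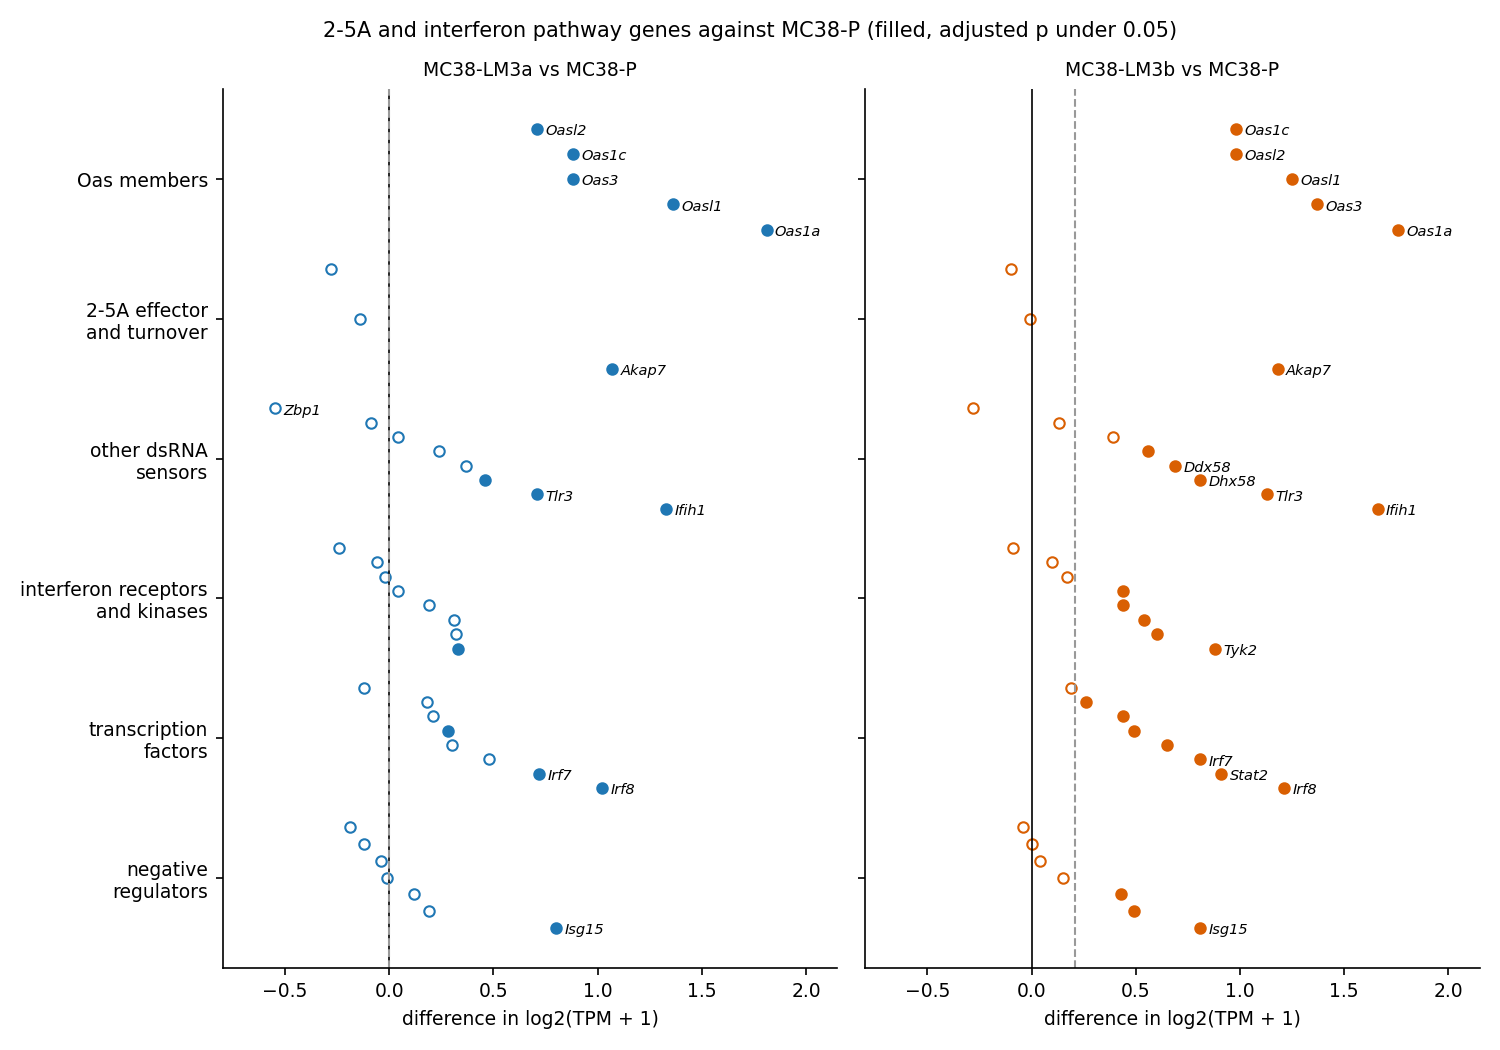
Difference in mean log2(TPM + 1) from MC38-P (x axis) of tested genes in 6 lists (y axis), some list genes being left out, in MC38-LM3a on the left and MC38-LM3b on the right. Each point is a gene, filled points had an adjusted p under 0.05, and the dashed line is the median of all tested genes (0.00 and 0.21). Oas1a lies farthest to the right in both panels, at 1.81 and 1.76, and no filled point lies below 0.

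Genes with a pattern most like that of the 5 tested members were ranked by the root mean square difference from the members' mean profile over the 9 libraries, in centred log2(TPM + 1). The nearest was Akap7 (0.0525), followed by Irf8 (0.0712), Slit1 (0.0735), Ctso (0.084) and Ypel5 (0.0861). The median over the other tested genes was 0.536. The members themselves ranged from 0.183 (Oasl1) to 0.314 (Oas1a). The 5 nearest genes thus lay closer to the mean profile than any member, so this pattern was not particular to the family. Ctso, a lysosomal cysteine protease, measured 13.0 ± 1.85, 28.0 ± 2.26 and 33.6 ± 1.31 TPM over the parental line, MC38-LM3a and MC38-LM3b in turn (SD, n = 3). Slit1, an axon guidance ligand, was much lower at 0.29 ± 0.04, 1.60 ± 0.107 and 2.00 ± 0.182 TPM. Its differences were 1.01 and 1.22 with the pseudocount of 1 used for this ranking, and 2.12 and 2.43 with one of 0.1, at which the ranking was not repeated.

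The members lie in 2 groups in the genome, the Oas1, Oas2 and Oas3 genes in one and Oasl1 and Oasl2 in another. To see whether genes around them moved too, the annotated genes within 500 kb were examined, of which 45 had values and 33 were tested. In MC38-LM3a 4 of these were higher and 2 lower, and in MC38-LM3b 15 were higher and 2 lower, against 14.1% and 35.6% of all tested genes called higher and 13.8% and 11.2% called lower. Their median difference was 0.01 and 0.15. None passed both thresholds in either comparison. Without both replicates 3, 6 were called higher and 11 lower in MC38-LM3a, where 18.4% and 45.2% of all tested genes were. With median centring 7 were higher and 4 lower there (19.8% and 20.1% of all tested genes), and with the GC and length offsets 12 and 5 (26.5% and 24.6%). In MC38-LM3b these counts were 9 and 8 with median centring (22.9% and 26.4%), and 13 and 8 with the offsets (29.3% and 28.3%).

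The labelled cell type was checked against markers of epithelial cells and of cells a liver lesion could hold. The keratins Krt8, Krt18 and Krt19 and Epcam were at 1 TPM or more in every library, while Cdh1, Cldn4, Cldn7 and Vil1 were under 1 TPM throughout. Cdx2, an intestinal transcription factor, fell from a mean of 2.27 TPM in MC38-P to 0.63 and 0.41 (adjusted p = 0.00101 and 2.305e-04, limma). Epcam fell from 5.76 TPM to 2.05 and 2.21, Krt8 and Krt18 fell in both derivatives, and Krt19 rose in MC38-LM3a, to 1.31 times its parental mean. In such bulk libraries a change in the share of cells that express a gene and one in transcripts per cell cannot be told apart. Hematopoietic markers summed to at most 0.75 TPM in any library, with Ptprc (CD45) at or below 0.09 TPM. The macrophage list summed to 39.3 to 40.9 TPM in the parental libraries, 49.2 to 54.2 in those of MC38-LM3a and 56.0 to 60.5 in those of MC38-LM3b. Of its 13 genes, 6 had values, Cd68 and Cd14 made up that sum and Csf1r was at or below 0.14 TPM. The dendritic cell list summed to 74.3 to 79.2, 93.2 to 102 and 91.7 to 108 TPM. Most of that sum was Bst2, itself an interferon-induced gene, at means of 65.3, 85.5 and 87.1 TPM. Zbtb46 had means of 5.52, 9.44 and 10.1 TPM, whereas Batf3 fell by 0.98 and 0.79 and Flt3 fell by 0.78 and 0.69 in the derivatives on the log2(TPM + 1) scale. The hepatocyte list summed to 45.0 to 49.4 TPM in the parental libraries and 20.8 to 24.1 in the derivatives, with Apoa2 and Ass1 at 1 TPM or more and Alb at or below 0.29 TPM. Ass1 made up most of that fall, from 45.0 TPM to 19.6 and 19.1, and Apoa2 had means of 2.63, 1.73 and 3.27 TPM that did not pass the test. The endothelial list stayed at or below 1.9 TPM, the stellate and fibroblast list summed to 135 to 173 TPM in MC38-P and 54.5 to 73.3 in the derivatives, and the epithelial list to 2000 to 2320 and 1580 to 1810 TPM. Of the stellate and fibroblast list, Col3a1 fell from 140 TPM to 54.9 and 60.9, whereas Pdgfrb had means of 1.54, 2.13 and 3.66 TPM and was called higher in MC38-LM3b. Of the T and NK cell list, 1 of 10 genes had values, at or below 0.18 TPM. The part of other cells in the Oas differences was not tested beyond these levels.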

How the data were processed

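Poly(A) RNA of the 9 cultures was sequenced on the DNBSEQ platform. The authors deposited TPM per gene and library, for 16399 genes by symbol and NCBI Gene number. Build GRCm39 and HISAT are named in the submitters' processing notes, and the quantifier is not given in the sources used here. The study used DESeq2, which needs counts and was not run. Groups came from the sample labels. The filter kept genes that reached 1 TPM in 3 or more libraries, and the deposited TPM were turned into log2(TPM + 1), with a pseudocount of 1. A limma 3.58.1 model (R 4.3.3) with a mean per group and a trended variance was fitted to all 9 libraries, and p-values were adjusted over 11287 genes by Benjamini-Hochberg. The limma fit was tried on simulated data with noise drawn independently for each gene and library. That trial does not cover deviations shared across genes, such as those along transcript length. Named genes were the members, the 2′-5′ oligoadenylate genes, the largest rise or fall of each list, Stat2, Irf9, Irf7 and Usp18, and the 5 nearest profiles. For the receptors and kinases the gene so named was Ifngr1, which had the largest rise in MC38-LM3a but not in MC38-LM3b. Other genes (Tlr3, Tyk2, Jak1, Oas1d, Oas1e and the markers) were named after their values were seen. Members and lists were chosen with earlier results of these data known, so no count over them is independent support. Lengths, coding sequences and shared runs came from GENCODE M21 (GRCm38), with a length for 98.3% of tested genes, and promoters from RefSeq (GRCm38.p6). The GC and length offsets were loess fits (span 0.3) per library. Some listed genes enter the counts over lists and are not reported here by name. Low values could not be given a counting error, as depth is unknown.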

Additional observations from a re-analysis of the deposited data

How the results depend on the processing

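Under 20 alternatives, 1 of them chosen after seeing the data, all 198 fits of a tested member against MC38-P kept their direction and their side of the threshold. With a filter of 5 TPM Oas1c was no longer tested. Over these alternatives the difference in MC38-LM3a ranged from 1.71 to 2.43 for Oas1a, 0.81 to 1.24 for Oas1c, 0.55 to 1.02 for Oas3, 1.23 to 1.79 for Oasl1 and 0.61 to 0.86 for Oasl2. In MC38-LM3b it ranged from 1.52 to 2.37, 0.76 to 1.36, 1.11 to 1.53, 1.02 to 1.65 and 0.72 to 1.16. With a pseudocount of 0.1, 3 members passed both thresholds in MC38-LM3a and 5 in MC38-LM3b.

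Counts of other genes moved more, and the cause was not tested. In MC38-LM3a 21 pathway genes passed with quantile normalization, 22 with median centring, 25 with the GC and length offsets, alone or with a replicate block, and 9 to 21 when libraries were left out, 21 being the count without the replicates 3 of MC38-P and MC38-LM3a. Of these, 19, 20, 22, 22 and 11 were higher. Of all tested genes, 28.0% were called as deposited in MC38-LM3a, and 42.0%, 40.0%, 51.1%, 47.4% and 63.6% under these settings in the same order, which are the background for the neighbouring genes too. For neighbouring genes in MC38-LM3a the counts were 3 with only the groups compared and 3 with the replicate block. They were 11 with quantile normalization, 11 with median centring, 17 with the offsets and 14 with block and offsets. When libraries were left out they were 4 to 17, 17 being the value without both replicates 3. Of all tested genes, 18.6% were called in MC38-LM3a with only the groups compared and 19.5% with the replicate block. The share was 18.6% to 63.6% when libraries were left out. In MC38-LM3b 9 neighbouring genes passed with the replicate block, and 9 to 23 when libraries were left out, with 9 without MC38-P replicate 3, MC38-LM3b replicate 1 or MC38-LM3b replicate 2. Of all tested genes, 34.5% were called there with the block and 33.0% to 65.3% when libraries were left out, against 46.7% as deposited. The replicate numbers mark no shared batch in the labels and same-numbered libraries did not deviate together (correlations of -0.66 to -0.17 between MC38-P and MC38-LM3a and 0.04 to 0.07 otherwise), so the block was not part of the fit. It changed no call of a member.

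Between the derivatives limma called 6 of all tested genes as deposited, 6351 of 11256 (56.4%) without MC38-LM3a replicate 3 and 8025 of 11187 (71.7%) without both replicates 3. Here 1 member passed without MC38-LM3a replicate 3 (Oas3) and 2 without both replicates 3 (Oas3 and Oasl2). For pathway genes these counts were 21 and 26, and for neighbouring genes 21 and 22. Leaving out any other single library left all 3 counts at 0. Median centring and quantile normalization brought the median of all genes in MC38-LM3b from 0.21 to -0.01 and 0.02.

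Some differences changed sign, and the values with the changed sign were not called. Against MC38-P these were Usp18 in MC38-LM3a (-0.21 to 0.11 when libraries were left out) and in MC38-LM3b (-0.14 quantile, -0.18 median centring, -0.07 with the offsets, with and without block, and -0.10 to 0.19 when libraries were left out), and Pde12 in MC38-LM3b (-0.04 to 0.04 when libraries were left out). Between the derivatives they were Oas1a (-0.09 to 0.01 when libraries were left out), Oas1c (-0.14 quantile, -0.12 median centring, -0.00026 with the offsets with and without block, -0.05 to 0.23 when libraries were left out), Oasl1 (-0.21 to 0.06 likewise) and Oasl2 (-0.01 quantile).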
